A study of Mus musculus with 6 samples.

Results

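Transcripts of the autophagy machinery and its cargo receptors were described in macrophages sorted from skin wounds of young and aged mice. The genes were chosen by name, as 24 listed genes of the pathway and every gene whose symbol begins with Atg and a digit. They were 43 of the 15168 genes in the deposited count table, and 42 of them had enough counts for a test. All samples came from female C57BL6/J wild-type mice with full-thickness wounds on the back. Live cells positive for CD45, CD11b, F4/80 and CD64 were sorted on Day 3 after wounding. The groups differed in age, with 3 young samples at 12 weeks and 3 aged samples at 24 months, and the letters A, B and C name the 3 sets of each group. The sources name more than one animal facility without saying which sample came from which. Nothing in the labels states whether a sample came from 1 animal or a pool, so p-values measure the spread between these samples, which may be partly technical. RNA was made into cDNA with the SMART-Seq v4 kit, which does not mark the strand, and sequenced from both ends.

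Autophagy encloses cytoplasm, damaged organelles, protein aggregates or microbes in a double membrane, the autophagosome, which then fuses with lysosomes. The ULK kinase complex starts the process, a class III PI3-kinase complex marks the membrane with a lipid signal, and ATG2, ATG9 and WIPI proteins help the membrane to grow. Conjugation enzymes then attach ATG8 proteins (the LC3 and GABARAP families) to that membrane, and cargo receptors such as p62, encoded by Sqstm1, bind ubiquitin on the cargo and ATG8 on the membrane at the same time. Macrophages use this machinery to clear microbes, aggregates and lipid, and p62 is itself degraded with its cargo, so that its protein amount and its mRNA need not move together. The values given here are of mRNA only and do not measure autophagic flux.

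Total counts ran from 15270103 to 17927483 per sample, so that 1 count corresponded to between 0.0553 and 0.0701 CPM (counts scaled to library sizes corrected by TMM). Macrophage markers summed to between 27970.0 and 43050.0 CPM for young and between 20170.0 and 25540.0 CPM for aged samples. Most of each sum was the single gene Lyz2. It was at 24157, 26501 and 38843 CPM in young and 21389, 16240 and 18234 CPM in aged A, B and C. Of the 8 macrophage markers, 2 had every aged sample above every young sample (Itgam and Fcgr1). Another 3 had every aged sample below (Adgre1, Cd68 and Lyz2). Among all genes tested, 19.2% lay above and 19.0% below in this way. Markers of neutrophils summed to between 986 and 1448 CPM for young and between 1140.0 and 2268 CPM for aged samples, with aged A at 2268 and aged C at 2004 CPM. Of the 16 neutrophil markers chosen, Camp was not in the table, and 4 of the other 15 had every aged sample above every young sample. Of all genes tested, 19.2% did. In the edgeR test described below, Cd177, Hdc, Cxcr2, Retnlg and Lcn2 were called higher in aged samples (adjusted p from 0.0116 to 0.0418). In that test 9.73% of all genes were called higher. None of the 15 was called lower. Mmp9 and Ltf had log2 fold changes of -0.54 and -0.31, and that of Ly6g was 0.05. The other uncalled neutrophil markers had log2 fold changes between 0.20 and 0.60. Keratinocyte markers summed to 191 CPM in aged B and to between 2.05 and 9.95 CPM in the other samples. Fibroblast markers summed to 189 CPM in aged B and to between 19.8 and 63.1 CPM in the other samples. T, B and NK cell markers summed to between 2.58 and 3.82 CPM for young and between 2.59 and 3.85 CPM for aged samples. Endothelial markers summed to between 9.97 and 11.2 CPM for young and between 25.0 and 30.6 CPM for aged samples. Pecam1, which leukocytes carry too, was at 6.80 to 10.1 CPM in the young and 24.4 to 28.3 CPM in the aged samples, and the other 4 endothelial markers were each at no more than 2.97 CPM. Erythroid markers summed to between 153 and 490.1 CPM for young and between 41.8 and 152 CPM for aged samples. The paper states that the sort did not exclude Ly6G-positive cells, so that a small part of the sorted cells may be neutrophils. The part of these other cells in the results for the autophagy genes was not tested. In sorted bulk samples, fewer cells of a type and less RNA per cell cannot be told apart.

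Of the 42 autophagy genes tested, 7 had more transcript in aged than in young samples and 0 had less (edgeR's quasi-likelihood test, adjusted p under 0.05 by Benjamini-Hochberg across the 11878 genes tested). Those 7 genes are 16.7% of the members tested, against 17.7% of all genes tested, so that the share was near the background. They were the cargo receptors Sqstm1, Optn and Tax1bp1, the ULK complex subunits Rb1cc1 and Atg13, the lipid transfer gene Atg2a and the PI3-kinase complex gene Uvrag. In all genes tested, 9.73% were higher in aged samples and 7.97% were lower. At an unadjusted p under 0.05, 11 members were higher in aged samples and 2 were lower, together 31.0% of the members against 34.5% of all genes. With DESeq2, 7 members were higher and 1 was lower, which is 19.0% of the members against 20.3% of the genes it gave an adjusted p. With limma-voom, 10 were higher and 2 lower, which is 28.6% of the members against 30.7% of all genes. A change of more than 2-fold was called for 1 member, Optn, which is 2.38% of the members against 8.79% of all genes.

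In 14 members every aged sample lay above every young sample, which is 33.3% of those tested against 19.2% of all genes. In 2 members, Atg5 and Atg10, every aged sample lay below every young sample, which is 4.76% against 19.0% of all genes. Both directions together came to 38.1% of the members and 38.2% of all genes. The 14 genes with aged samples above were the 7 that rose and Atg9a, Wipi2, Nbr1, Ambra1, Atg4b, Map1lc3a and Atg12. The fitted log2 fold change was above 0 in 29 of the 42 members, or 69.0%, against 48.8% of all genes. Its median was 0.20 over the members and -0.02 over all genes tested. The SD between samples of one age in the members' median was 0.10 on the log2 scale. These counts and medians describe the list and were not tested against other genes.

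**Figure D1:**
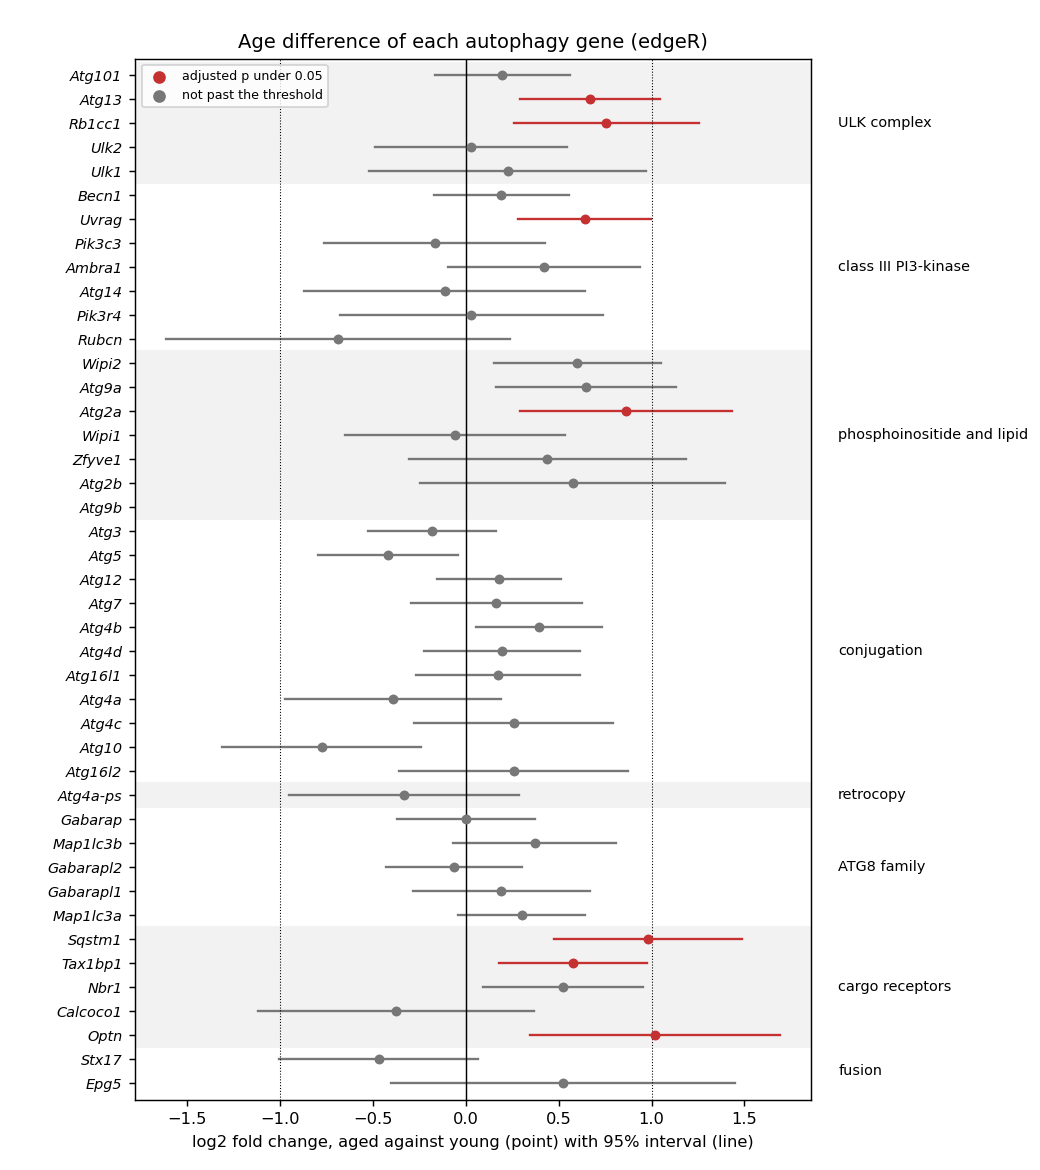
Log2 fold change of aged against young Day 3 wound macrophages for the 42 autophagy genes tested (horizontal axis), with its 95% confidence interval, grouped by role (vertical axis), with dotted lines at a change of 2-fold. Red marks the 7 genes with an adjusted p under 0.05, all to the right of 0, and Atg10 lies farthest to the left at -0.78.

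The calls depended on which samples were used. In edgeR fits that each left out 1 sample, 9 members were called without young A (8 higher, and Atg5 lower), 5 without aged B, 3 without aged A (Sqstm1, Atg13 and Nbr1) and 1 without young B (Atg13). Without aged C, 0 members were called, while 10 were higher and 1 lower at an unadjusted p under 0.05, together 26.2% against 26.5% of all genes in that fit. Without young C, 0 members were called as well, while 8 were higher and 1 lower at an unadjusted p under 0.05, together 21.4% against 24.6% of all genes in that fit. Over all genes, the same fits called between 218 genes, without young C, and 2702 genes, without young A, against 2103 with all samples. The share of all genes called was 22.3% without young A, 6.29% without young B, 1.78% without young C, 11.3% without aged A, 12.3% without aged B and 4.45% without aged C. The members called were 21.4% without young A, 2.38% without young B, 7.14% without aged A and 11.9% without aged B, below the share of all genes in each of these fits. DESeq2 and limma-voom were not run on the sets of 5 samples. The log2 fold changes of the 7 genes stayed above 0 in all 6 of these fits, with a lowest value of 0.50 for Tax1bp1 without aged A. Sqstm1 and Atg13 were called in 3 of the 6 fits, Atg2a, Rb1cc1, Uvrag and Tax1bp1 in 2, and Optn in 1.

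**Figure D2:**
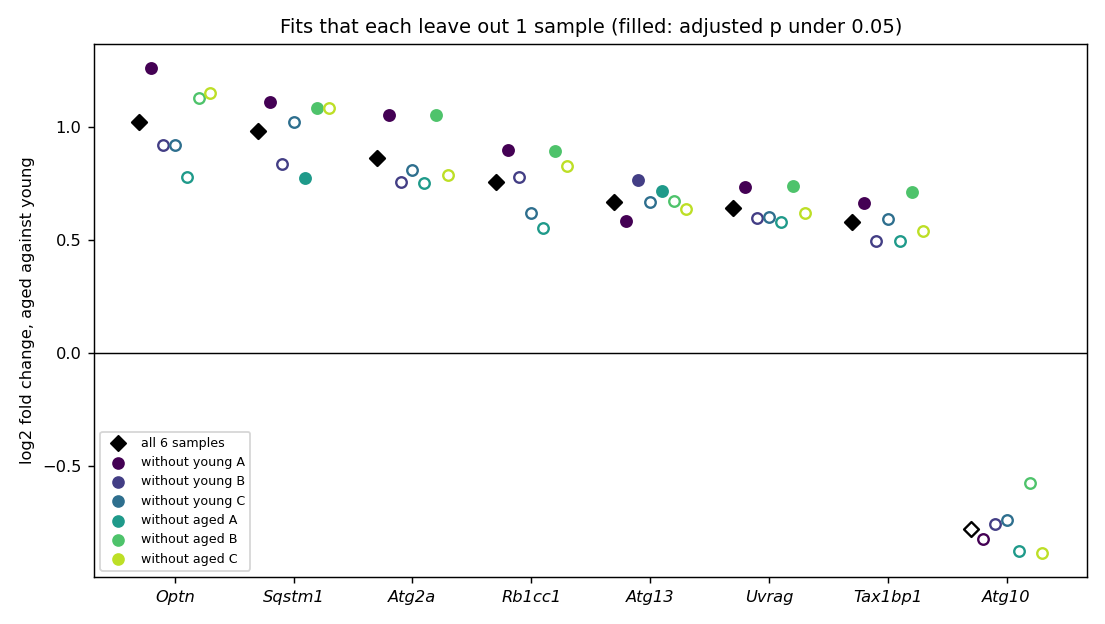
Log2 fold change of aged against young samples (vertical axis) for the 7 called genes and Atg10, with all 6 samples and in 6 fits that each leave out 1 sample. The points of the 7 called genes lie above 0 throughout, and those of Atg10 lie below 0.

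Among the cargo receptors, 3 of 5 rose, with a median log2 fold change of 0.58 over the 5. In this and the groups that follow, the count is read beside 9.73% of all genes tested that were called higher and 17.7% called in either direction, and groups of this size were not tested as such. Sqstm1 (chr11:50199366-50210828, minus strand, mm10) encodes p62, which gathers ubiquitinated cargo and also takes part in NF-κB and NRF2 signalling. It was measured at 1756, 1169.9 and 1592 CPM in young A, B and C and at 3765, 2593 and 2554 CPM in aged A, B and C. The lowest aged sample lay well above the highest young sample, and aged A was the highest of all. The means were 1506 ± 302 CPM for young and 2970.5 ± 688 CPM for aged samples (SD, n = 3), with a log2 fold change of 0.98 (SE, the standard error of that change, 0.23; edgeR adjusted p = 0.0206). Without aged A the log2 fold change was 0.78, with an adjusted p of 0.0488, and over the 6 fits that left out a sample the adjusted p ran from 0.0144 to 0.0838. Ordered by CPM among all genes of a sample, Sqstm1 ranked 70, 108 and 83 in young A, B and C and 34, 49 and 61 in aged A, B and C. These ranks were not corrected for length and are compared only between samples. The exons of Sqstm1 share 580 bases with Mrnip on the other strand, and Mrnip was at 0.0618 to 1.17 CPM.

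Optn (chr2:5020642-5064052, minus strand) encodes optineurin, a receptor for mitochondria and bacteria that TBK1 phosphorylates. Its levels were low, at 4.31, 2.82 and 2.84 CPM in young A, B and C and 8.90, 5.86 and 5.56 CPM in aged A, B and C, from 43 to 127 counts. All aged samples lay above all young samples, and in both ages the set A sample was the highest. The means were 3.32 ± 0.858 and 6.77 ± 1.85 CPM, with a log2 fold change of 1.02 (SE 0.30, edgeR adjusted p = 0.0437). Tax1bp1 (chr6:52713729-52766781, plus strand) encodes a ubiquitin-binding receptor that also restrains inflammatory signalling together with A20. It was at 213, 168 and 196 CPM in young and 319, 237 and 304 CPM in aged A, B and C. The groups did not overlap, and aged B was the nearest to the young samples. The means were 192 ± 22.7 and 287 ± 43.8 CPM, with a log2 fold change of 0.58 (SE 0.18), and its adjusted p of 0.0495 was the highest of the 7.

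The other 2 receptors did not pass the edgeR test with all 6 samples. Nbr1 encodes a p62-like receptor that drives p62 condensates, and was at 23.9, 22.4 and 22.2 CPM in young and 24.5, 36.7 and 37.1 CPM in aged A, B and C. Aged A lay just above the young samples, and aged B and C lay farther above (log2 fold change 0.52, edgeR adjusted p = 0.0850). Nbr1 was called higher by limma-voom (adjusted p = 0.0239) and by edgeR without aged A (adjusted p = 0.0353). Calcoco1, which encodes a receptor for the endoplasmic reticulum and Golgi, had means of 6.42 ± 2.41 and 4.93 ± 1.41 CPM (log2 fold change -0.38, adjusted p = 0.454).

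**Figure D3:**
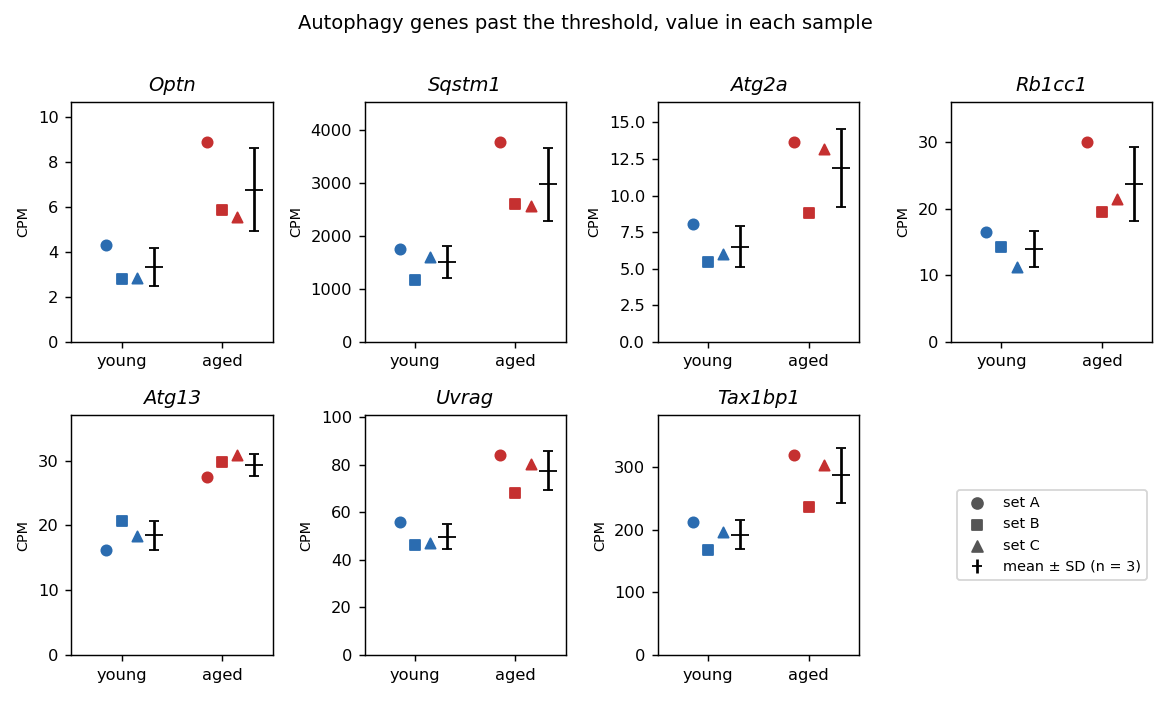
CPM of the 7 called genes in each sample (points, vertical axis from 0), with the group mean and SD (n = 3) for young and aged Day 3 wound macrophages. Every aged sample lies above every young sample in each of the 7 genes.

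In the ULK initiation complex 2 of 5 genes rose (9.73% of all genes did), and the median log2 fold change was 0.22. With 1 sample left out, that median ran from 0.20 without aged A to 0.47 without aged C. Rb1cc1 (chr1:6206197-6276649, plus strand) encodes FIP200, the scaffold of the complex. Its levels were 16.5, 14.3 and 11.2 CPM in young and 30.0, 19.5 and 21.5 CPM in aged A, B and C. Aged A stood above the rest, and the lowest aged sample, B, was close to the highest young sample, A. The log2 fold change was 0.76 (SE 0.23, edgeR adjusted p = 0.0435), and 0.55 without aged A. Rb1cc1 shares 313 exonic bases with the antisense gene 4732440D04Rik, with means of 0.371 ± 0.364 and 1.89 ± 0.673 CPM in the young and aged groups, and reads of the 2 strands cannot be told apart with this kit.

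Atg13 (chr2:91674618-91710577, minus strand) encodes the subunit that links ULK kinases to FIP200. It was at 16.3, 20.7 and 18.4 CPM in young and 27.5, 29.7 and 30.8 CPM in aged A, B and C, with the aged samples close to each other and well above the young ones. Its means were 18.5 ± 2.22 and 29.3 ± 1.71 CPM (log2 fold change 0.67, SE 0.17, adjusted p = 0.0266). Of the complex, Atg101, which encodes the partner that stabilises ATG13, had the highest level per length, and its CPM was 46.2, 62.2 and 58.4 in young and 64.0, 66.5 and 60.7 in aged A, B and C. The groups overlapped (log2 fold change 0.20, edgeR adjusted p = 0.425). The kinase genes Ulk1 and Ulk2 did not pass the test either, with log2 fold changes of 0.22 and 0.03 (adjusted p = 0.671 and 0.944). Ulk2 was measured at 8.75 ± 1.08 CPM for young and 8.94 ± 1.76 CPM for aged samples. Ulk1 was at 5.75, 5.46 and 4.16 CPM in young and 9.18, 4.97 and 3.89 CPM in aged A, B and C, so that aged A was the highest sample and aged C the lowest.

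In the class III PI3-kinase complexes and their regulators 1 of 7 genes rose, or 14.3% against 9.73% of all genes, and the median log2 fold change was 0.03. With 1 sample left out, that median changed sign, from -0.13 without young C to 0.22 without young A. The gene that rose was Uvrag (chr7:98885021-99141142, minus strand), whose protein joins the complex that acts at endosomes and late autophagosomes. It was measured at 55.8, 46.2 and 47.1 CPM in young and 84.1, 68.2 and 80.2 CPM in aged A, B and C. All aged samples were above all young samples, and the means were 49.7 ± 5.27 CPM for young and 77.5 ± 8.26 CPM for aged samples (log2 fold change 0.64, SE 0.16, edgeR adjusted p = 0.0262). The core genes of the complex, Pik3c3 (the kinase VPS34), Pik3r4 (its regulatory subunit VPS15) and Becn1 (Beclin 1), had log2 fold changes of -0.17, 0.03 and 0.19 and did not pass the test. Pik3c3 was measured at 7.56 ± 2.22 CPM for young and 6.73 ± 0.971 CPM for aged samples, and Pik3r4 was scarcer, at 3.45 ± 1.02 and 3.53 ± 0.598 CPM. Becn1, the highest of the group per length, was at 107, 109 and 93.5 CPM in young and 137, 107 and 109.8 CPM in aged A, B and C, and the groups overlapped (adjusted p = 0.440). Atg14, which directs the complex to the forming autophagosome, was at 5.11 ± 1.60 and 4.74 ± 1.54 CPM, with a log2 fold change of -0.11 (95% confidence interval -0.87 to 0.64). Ambra1, a positive regulator, was at 5.93 ± 1.03 and 7.95 ± 0.289 CPM (log2 fold change 0.42), with all aged samples above (edgeR adjusted p = 0.228). Rubcn, an inhibitor of the Uvrag complex that also serves LC3-associated phagocytosis, was low, at 1.88, 4.40 and 2.97 CPM in young and 1.19, 2.29 and 2.22 CPM in aged A, B and C. Its groups overlapped, with a log2 fold change of -0.69 (adjusted p = 0.268).

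The genes for phosphoinositide effectors and lipid supply included 1 gene that rose among 6 tested, or 16.7% against 9.73% of all genes, and their median log2 fold change was 0.59. Atg2a (chr19:6241668-6262336, plus strand) encodes a lipid transfer protein that feeds the growing membrane. It was at 8.08, 5.46 and 6.01 CPM in young and 13.7, 8.79 and 13.2 CPM in aged A, B and C. Aged B was only slightly above young A, while aged A and C were clearly higher, and the log2 fold change was 0.86 (SE 0.26, edgeR adjusted p = 0.0437). Its paralog Atg2b was measured at 1.82 ± 0.476 and 2.73 ± 0.694 CPM, with a log2 fold change of 0.58 (adjusted p = 0.297). Atg2b shares 383 exonic bases with Gskip on the other strand, which was far more abundant, with means of 30.7 ± 5.32 and 40.9 ± 4.59 CPM, and the part of its reads in the Atg2b value was not tested.

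Atg9a, which encodes the scramblase that seeds the membrane, was at 8.96, 14.5 and 11.0 CPM in young and 19.3, 16.1 and 18.6 CPM in aged A, B and C. Wipi2, whose protein reads the lipid signal and recruits ATG16L1, was the highest of this group per length, at 23.1, 15.5 and 14.8 CPM in young and 28.0, 26.9 and 26.2 CPM in aged A, B and C. In both genes all aged samples lay above all young samples, but the adjusted p-values were 0.0655 and 0.0654 in the edgeR test, with log2 fold changes of 0.65 and 0.60. Both were called higher by limma-voom (adjusted p = 0.0203 for Atg9a and 0.0136 for Wipi2), and Wipi2 by edgeR without young A (adjusted p = 0.0118). Atg9a shares 1832 exonic bases with Gm29253 on the same strand, which was at 0.701 CPM in aged B and at 0 CPM in the other samples. Wipi1, for a relative of WIPI2, had means of 6.81 ± 0.316 CPM for young and 6.55 ± 2.01 CPM for aged samples (log2 fold change -0.06, adjusted p = 0.899). Zfyve1, for the omegasome protein DFCP1, had means of 3.74 ± 1.06 and 5.07 ± 1.73 CPM (log2 fold change 0.44, adjusted p = 0.382). Atg9b was not tested, since it had 0 to 7 counts in a sample, or 0 to 0.462 CPM.

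None of the 11 conjugation genes was called in the edgeR test, in which 1 was higher and 2 were lower at an unadjusted p under 0.05. DESeq2 called 1 of them lower (Atg10), and limma-voom called 2 lower (Atg5 and Atg10). Atg10 encodes the enzyme that carries ATG12 to ATG5. It was at 10.3, 11.3 and 11.7 CPM in young and 7.36, 4.65 and 7.41 CPM in aged A, B and C. Every aged sample lay below every young sample, aged B being the lowest, and the adjusted p of 0.0501 lay just above the threshold (log2 fold change -0.78, SE 0.24, 95% confidence interval -1.31 to -0.24).

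Atg5, which encodes the partner of ATG12 in the conjugate, was at 54.7, 73.8 and 74.4 CPM in young and 50.5, 53.9 and 47.3 CPM in aged A, B and C. The groups did not overlap, young A being close to the aged samples, and the log2 fold change was -0.42 (edgeR adjusted p = 0.111). Without young A, Atg5 was called. Atg12 itself had aged samples above young ones by a small margin, with a log2 fold change of 0.18 (adjusted p = 0.433). Atg3, which encodes the enzyme that passes ATG8 to its lipid, had the highest level of the group per length. It was at 84.0, 106 and 103 CPM in young and 88.0, 85.1 and 84.7 CPM in aged A, B and C, which overlapped (log2 fold change -0.18, adjusted p = 0.439).

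Atg7, which encodes the activating enzyme of both conjugation routes, was at 31.8 ± 6.41 CPM for young and 35.6 ± 7.20 CPM for aged samples (log2 fold change 0.16, edgeR adjusted p = 0.610). Atg16l1, whose protein places the conjugate on the membrane, was at 10.3 ± 0.896 and 11.6 ± 1.11 CPM, and its relative Atg16l2 at 4.04 ± 0.367 and 4.83 ± 1.06 CPM. Their log2 fold changes were 0.17 and 0.26, and neither passed the test. The ATG4 proteases trim ATG8 proteins before conjugation and release them afterwards. Atg4b was at 29.2, 28.6 and 26.9 CPM in young and 38.1, 38.0 and 35.2 CPM in aged A, B and C, with all aged samples above (log2 fold change 0.39, edgeR adjusted p = 0.0951). Atg4c was at 8.01 ± 0.536 and 9.57 ± 2.48 CPM and Atg4d at 12.5 ± 1.15 and 14.3 ± 1.17 CPM, and neither passed the test (log2 fold changes 0.26 and 0.19). Atg4d shares 1379 exonic bases with Kri1 on the other strand, which had means of 3.68 ± 0.368 and 3.02 ± 0.797 CPM. Atg4a has a retrocopy, Atg4a-ps, whose symbol met the rule, and reads of the near-identical copies may be split between them. Atg4a was at 7.63, 14.0 and 9.25 CPM in young and 6.94, 8.28 and 8.28 CPM in aged A, B and C, and the retrocopy at similar levels, with means of 11.0 ± 3.53 and 8.69 ± 1.58 CPM. Their log2 fold changes were -0.39 and -0.33, and that of their summed counts was -0.36 (adjusted p = 0.318), so that no call turned on the split.

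None of the 5 ATG8 genes was called, none passed an unadjusted p under 0.05 in the edgeR test, and neither DESeq2 nor limma-voom called any. Gabarap was the most abundant of them, at 485, 529 and 627 CPM in young and 555, 521 and 564 CPM in aged A, B and C. The aged samples lay inside the range of the young ones, and the 95% confidence interval of the log2 fold change ran from -0.37 to 0.37. Map1lc3b, which encodes the LC3 protein used as a marker of autophagosomes, was at 365, 253 and 297 CPM in young and 469.7, 332 and 381 CPM in aged A, B and C. In each age the set A sample was the highest, the groups overlapped, and the log2 fold change was 0.37 (95% confidence interval -0.07 to 0.81, edgeR adjusted p = 0.214). Map1lc3a was at 37.7, 35.2 and 34.5 CPM in young and 47.2, 40.3 and 44.8 CPM in aged A, B and C, with all aged samples above (log2 fold change 0.30, adjusted p = 0.194). Gabarapl1 was at 57.9 ± 11.8 CPM for young and 66.1 ± 16.8 CPM for aged samples, and Gabarapl2 at 97.1 ± 13.9 and 93.0 ± 7.52 CPM. They had log2 fold changes of 0.19 and -0.06, with intervals of -0.29 to 0.67 and -0.43 to 0.30.

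Of the genes for fusion with lysosomes, Stx17 encodes the SNARE protein of the closed autophagosome and Epg5 a tether that aids its fusion. Neither was called by edgeR, DESeq2 or limma-voom, and neither passed an unadjusted p under 0.05 in the edgeR test. Stx17 was at 8.57, 13.6 and 9.84 CPM in young and 7.36, 6.94 and 8.77 CPM in aged A, B and C, with an overlap between young A and aged C (log2 fold change -0.47, adjusted p = 0.196). Epg5 was scarce, with means of 1.51 ± 0.463 and 2.18 ± 0.730 CPM and a wide interval of -0.40 to 1.45 around a log2 fold change of 0.52.

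**Figure D4:**
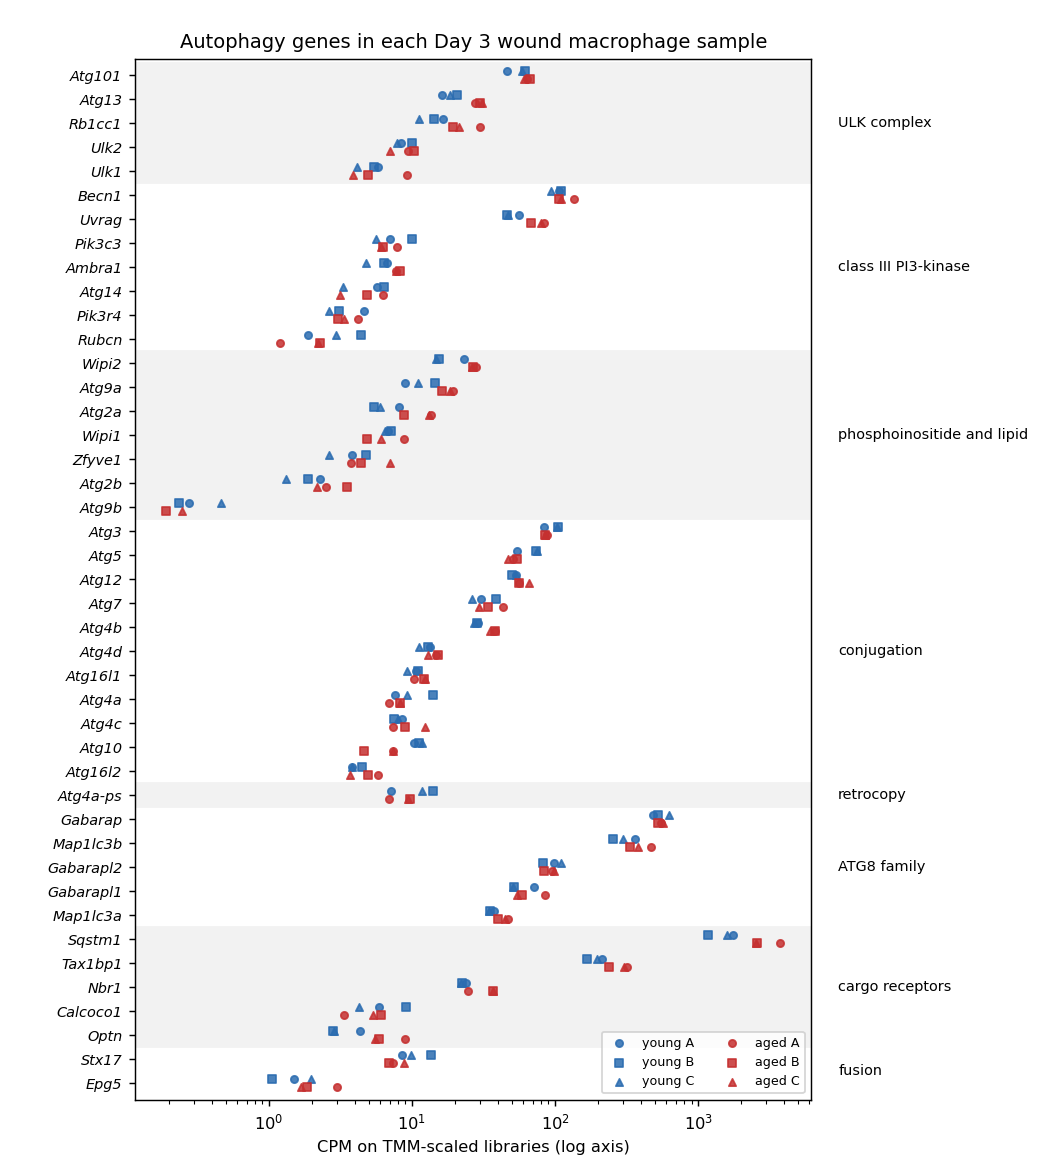
CPM of all 43 autophagy genes in each of the 6 samples (horizontal log axis), grouped by role (vertical axis), with young and aged samples in different colours. Sqstm1 is the highest in every sample, and Atg9b the lowest, with the 0 of aged A not drawn on the log axis.

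Levels can be compared between genes only per length, for which CPM were divided by the length of the union of exons in kilobases. On that scale Sqstm1 had 793 CPM per kb over all samples, ahead of Gabarap with 405, Tax1bp1 with 72.9 and Map1lc3b with 67.5 CPM per kb. With the longest coding transcript as the length, Map1lc3b came to 133 CPM per kb and stood ahead of Tax1bp1. The order of this pair depended on the length used and on age: with the union of exons Map1lc3b was at 58.9 and Tax1bp1 at 58.5 CPM per kb over the young samples, and at 76.1 and 87.3 CPM per kb over the aged samples. Over all samples, the next were Gabarapl2 with 56.7, Atg101 with 47.0 and Atg3 with 44.6 CPM per kb, and the order of Atg101 and Atg3 also differed by age, at 43.8 and 47.4 CPM per kb over the young and 50.2 and 41.8 CPM per kb over the aged samples. The lowest were Atg9b with 0.0603 and Epg5 with 0.191 CPM per kb. Next was Atg2b with 0.241 CPM per kb over the young samples, and Rubcn with 0.325 CPM per kb over the aged samples.

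Sqstm1 made up a large part of the summed CPM of the 43 genes. Its share was 47.2%, 38.3% and 44.2% in young A, B and C and 60.9%, 55.8% and 53.2% in aged A, B and C. The share was higher in every aged than in every young sample, at 43.2% ± 4.53 and 56.6% ± 3.92 (SD, n = 3). The 43 genes summed to 3718, 3058 and 3601 CPM in young and to 6184, 4651 and 4797 CPM in aged A, B and C. Without Sqstm1 they summed to 1953 ± 60.5 CPM for young and 2240.0 ± 181 CPM for aged samples, so that most of the difference in the sum was in Sqstm1. The 5 ATG8 genes summed to 1057, 951 and 1119 CPM in young and 1253, 1037 and 1142 CPM in aged A, B and C, which overlapped. The ratio of Sqstm1 to Map1lc3b was 4.81, 4.63 and 5.36 in young and 8.02, 7.81 and 6.71 in aged A, B and C. The ratio of Sqstm1 to Gabarap was 3.62, 2.21 and 2.54 in young and 6.79, 4.98 and 4.53 in aged samples. These sums, shares and ratios rest on the same Sqstm1 counts and are a description. They use CPM not divided by length, so they are compared between samples and do not give relative levels of different genes.

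**Figure D5:**
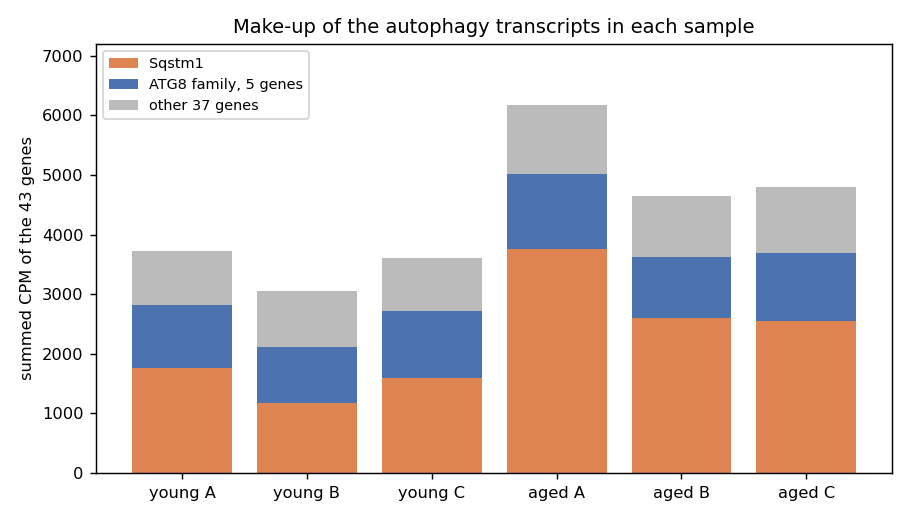
Summed CPM of the 43 autophagy genes in each sample (vertical axis from 0), split into Sqstm1, the 5 ATG8 genes and the remaining members. Sqstm1 fills the largest part of the bar in all 6 samples, and the ATG8 part is of similar height in all samples.

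Samples of one age also differed among themselves. Of the 42 genes tested, 18 had their highest CPM in aged A, 8 in young B, 6 in aged C, 5 in aged B, 4 in young C and 1 in young A. The lowest CPM fell in young C for 15 genes and in young B for 9. The coefficient of variation within an age had a median over the genes of 17.0% in young and 17.3% in aged samples, with the highest value at 46.5% for Ulk1 in aged samples.

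Promoter sequence was read for the members from RefSeq (assembly GRCm38.p6), from 250 bases before to 50 bases after each start, and 35 of the 43 genes had such a window. The windows were searched on both strands for CACGTG, the core of the sites that TFEB and TFE3 bind, for the longer TCACGTGA, which contains it, and for TGACNNNGC, the core of antioxidant response elements that NRF2 binds. CACGTG occurred in 5 of the 35 genes (14.3%: Atg14, Atg3, Atg5, Atg7 and Rubcn), against 8.09% of 27025 genes with a window of that length. None of these 5 was called by edgeR with all 6 samples, while Atg5 was called lower by limma-voom and by edgeR without young A. TCACGTGA occurred in 1 gene, Atg3 (2.86% against 1.12% of genes). TGACNNNGC occurred in 5 genes (14.3%: Atg13, Map1lc3b, Tax1bp1, Ulk2 and Zfyve1), against 14.0% of genes, and of these Atg13 and Tax1bp1 were called by edgeR with all 6 samples. A gene with more than 1 window was counted if any of them held a match. The windows with matches in Atg7, Atg14, Rubcn, Zfyve1 and Tax1bp1 lay wholly inside the span that the count table gives for the gene. A match is a description of letters and not of a bound site. Sqstm1, the most abundant member, had no match to the 3 motifs in its window, and sites outside the windows were not searched. The sequences shown are the upstream window of Sqstm1 and the stretches around the matches in Atg13, Tax1bp1 and Atg3. They are 5′ to 3′ on the strand of the gene, with motif matches in capitals.
Sqstm1, chr11:50210821-50211070, minus strand: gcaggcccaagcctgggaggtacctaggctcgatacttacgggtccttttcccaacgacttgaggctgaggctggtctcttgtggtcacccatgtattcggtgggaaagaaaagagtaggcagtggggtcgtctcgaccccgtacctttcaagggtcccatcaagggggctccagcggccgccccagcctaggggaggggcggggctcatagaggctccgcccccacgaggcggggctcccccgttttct
Atg13, chr2:91710783-91710842, minus strand: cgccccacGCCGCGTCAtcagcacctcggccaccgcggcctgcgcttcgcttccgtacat
Tax1bp1, chr6:52713935-52713994, plus strand: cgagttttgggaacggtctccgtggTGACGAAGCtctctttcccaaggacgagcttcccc
Atg3, chr16:45158709-45158778, plus strand: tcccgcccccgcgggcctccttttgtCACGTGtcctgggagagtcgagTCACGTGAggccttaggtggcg
The match in Atg13 reads on the opposite strand, and that in Tax1bp1 on the strand of the gene.

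Of 84 further genes that regulate or assist autophagy, 81 were in the table and 80 were tested. In the edgeR test 8 were higher and 3 lower in aged samples, together 13.8% against 17.7% of all genes tested, and the median log2 fold change was 0.17. With 1 sample left out, that median ran from 0.14 without aged A to 0.26 without young A. Among genes of nutrient and transcriptional control, 5 of 34 were called, with 3 higher and 2 lower. Among other core machinery 2 of 13 were called, both higher, and among other selective receptors and adaptors 4 of 17, 3 higher and 1 lower. None of 16 other fusion genes was called by edgeR with all 6 samples, where 2 were higher and 1 lower at an unadjusted p under 0.05. DESeq2 called 1 of them lower, and limma-voom 1 higher and 1 lower. Other edgeR fits called 1 lower with at least 10 counts in every sample, with the set block and without aged A, and 2 higher without young A.

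The receptor gene with the largest rise was Retreg1, which encodes FAM134B, a receptor for the endoplasmic reticulum. It was at 21.1, 9.50 and 17.4 CPM in young and 49.5, 27.4 and 39.7 CPM in aged A, B and C, with no overlap (log2 fold change 1.28, SE 0.30, edgeR adjusted p = 0.0206). Rtn3, for another receptor of the endoplasmic reticulum, rose with a log2 fold change of 0.54 (adjusted p = 0.0332). Tollip, for an adaptor that binds ubiquitin and LC3, rose from 133, 53.1 and 73.8 CPM in young to 193, 157 and 170.2 CPM in aged A, B and C (adjusted p = 0.0397). Phb2, for an inner mitochondrial membrane protein that serves as a mitophagy receptor, fell from 111 ± 14.5 to 70.3 ± 3.97 CPM (log2 fold change -0.66, adjusted p = 0.0225). Of the core genes, Trp53inp2, for a nuclear protein that moves to autophagosomes, rose with a log2 fold change of 0.83, and Bcl2l1, for BCL-XL, which binds Beclin 1 and blocks cell death, with 0.76 (edgeR adjusted p = 0.0279 and 0.0238).

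Tfe3, which encodes a transcription factor of lysosomal and autophagy genes, rose from 60.2 ± 13.3 to 96.7 ± 13.7 CPM (log2 fold change 0.68, edgeR adjusted p = 0.0396). Its relatives Tfeb and Mitf had log2 fold changes of -0.0048 and -0.06, with overlapping groups. Fnip1, for a partner of folliculin, and Sesn2, for a leucine sensor that restrains mTORC1, rose with log2 fold changes of 0.94 and 0.74 (adjusted p = 0.0206 and 0.0269). Sesn1, of the same sestrin family, fell with a log2 fold change of -1.80 (adjusted p = 0.0281). It was at 8.08, 26.6 and 9.12 CPM in young and 2.52, 4.52 and 5.50 CPM in aged A, B and C, so that young B stood far above the others. Without young B its log2 fold change was -1.03 (edgeR adjusted p = 0.0956), and it was called in 1 of the 6 fits that left out a sample. Of the other 10 called pathway genes, Tollip, Tfe3 and Lamtor2 were likewise called in 1 of these fits, Retreg1, Rtn3, Sesn2 and Trp53inp2 in 2, and Bcl2l1, Fnip1 and Phb2 in 3. Lamtor2, for a subunit of the Ragulator that holds mTORC1 on lysosomes, fell from 43.7 ± 2.22 to 29.7 ± 1.01 CPM (log2 fold change -0.55, adjusted p = 0.0331), while Mtor itself had a log2 fold change of -0.17 (adjusted p = 0.652). Without young B, young C or aged C, 0 of these 80 genes were called in the edgeR test, while 14 were higher and between 4 and 5 were lower at an unadjusted p under 0.05. Together these were 23.8% without young B, 22.5% without young C and 23.8% without aged C, against 27.7%, 24.6% and 26.5% of all genes in the same fits.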

How the data were processed

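The authors aligned the reads with STAR 2.7.3a to mm10, used Partek Flow with Ensembl transcripts 102 for quantification and deposited expected counts per gene without normalisation. Whether the counting used strand is not given in the sources used here. The deposited table holds genes with at least 10 counts over the 6 samples. A second deposited table, with the authors' DESeq2 comparison and normalised values, was not used.

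Expected counts, of which 30.7% to 34.0% per sample were not whole, were rounded, since the design named raw counts. In R 4.3.3, edgeR 4.0.16 (TMM, filterByExpr, quasi-likelihood test, no block) compared 3 aged with 3 young samples, with p-values adjusted by Benjamini-Hochberg across 11878 genes and a threshold of 0.05. Total counts of 15270103 to 17927483 per sample were multiplied by TMM factors of 0.904 to 1.11 to give the library sizes behind CPM. No pair of samples within an age agreed within sampling noise, and all were counted separately. Precision is that of 3 samples a group, with a biological coefficient of variation of 0.239. Lengths and overlaps came from GENCODE M21, which shares the mm10 coordinates, and promoters from RefSeq. The retrocopy symbol Atg4a-ps was counted as a member.

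Every member is named. Values in every sample are given for called members, for the highest member of each group per length and for others chosen after their values were seen. Members, pathway lists and marker lists were chosen with earlier results of these data known. Alternatives were DESeq2 1.42.0, limma-voom (limma 3.58.1) with sample quality weights, DESeq2 size factors, no filter, at least 10 counts in every sample, a block for the set letter and fits without each sample in turn. Summing Atg4a with Atg4a-ps was added after the data were seen. The fit was tested on simulated data. Figures used Python 3.11.15, pandas 2.3.3 and matplotlib 3.10.9.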

Additional observations from a re-analysis of the deposited data

How the results depend on the processing

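The 7 members were called in the same direction with DESeq2 size factors in edgeR, with DESeq2, with at least 10 counts in every sample, with limma-voom and with the set letter as a replicate block, while no filter on low counts left 4 (Optn, Sqstm1, Atg13 and Uvrag), with 12.1% of all genes called. Members lower in aged samples numbered 1 with at least 10 counts in every sample, 1 with DESeq2 and 2 with limma-voom, which called 12 members in all. Over all genes, the lower calls in these fits were 975 of 10626, 1074 of 12500 and 1713 of 11878. In both directions together, 19.0%, 19.0% and 28.6% of the members were called, against 19.8%, 20.3% and 30.7% of all genes. The other pathway genes called numbered 26 of 80 with limma-voom (19 higher, 7 lower), beside 30.7% of all genes. They numbered 13 of 78 with at least 10 counts in every sample (8 higher, 5 lower), beside 19.8% of all genes. DESeq2 called 16 of 81 (11 higher, 5 lower), beside 20.3% of all genes. Over all genes limma-voom called 3646 (1933 higher, 1713 lower) against 2103. Leaving out 1 sample gave 0 to 9 members (0 to 8 higher, 0 to 1 lower), 0 to 23 other pathway genes (0 to 17 higher, 0 to 6 lower) and 218 to 2702 of all genes (151 to 1574 higher, 67 to 1128 lower), with the members' median log2 fold change between 0.16 and 0.27. The cause of these shifts was not tested. Small log2 fold changes turned sign: Ulk2 was at -0.044 with limma-voom, and Gabarap at 0.0073 with DESeq2 size factors, 0.0099 with DESeq2 and 0.0066 with the block. With 1 sample left out, the ranges crossed 0 for Ulk1 (-0.21 to 0.47), Gabarapl1 (-0.032 to 0.37), Atg7 (-0.0016 to 0.34), Ulk2 (-0.081 to 0.19), Pik3r4 (-0.13 to 0.30), Gabarap (-0.076 to 0.11), Wipi1 (-0.32 to 0.13), Gabarapl2 (-0.16 to 0.041), Atg14 (-0.36 to 0.12) and Pik3c3 (-0.34 to 0.089). Other ranges kept their sign but were wide, such as Calcoco1 (-0.60 to -0.047), Atg4c (0.040 to 0.41) and Zfyve1 (0.13 to 0.65). Further cases were Rubcn (-0.95 to -0.33), Atg4a (-0.57 to -0.099) and Epg5 (0.22 to 0.76). With limma-voom Calcoco1 was at -0.083.

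The set letter pairs samples across ages only by name. Deviations from the group means of same-letter samples correlated at 0.18 in A, -0.02 in B and 0.11 in C across genes, and not every sample correlated best with its own letter. The replicate block called 7 members, 13 other pathway genes and 2114 of all genes. Depth limits the members of few counts, such as Optn, Rubcn, Epg5 and Atg9b, of which Atg9b had too few for a test.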
